A study of Mus musculus with 28 samples.

Results

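The comparison set 5 untreated alpha7 mice against 5 untreated beta4 null mice, 10 of the 28 mice in the series, chosen by their source labels alone. The alpha7 mice are heterozygous for L250T, a change in the pore of the alpha7 nicotinic receptor subunit (+/T in the labels), and the beta4 null mice (b4-/-) lack the beta4 subunit. All were labelled C57BL/6J and had received no nicotine. RNA from the whole brain of each mouse was hybridised to 1 Affymetrix U74Av2 array, and the deposited value is a MAS5 signal intensity per probe set. The other mice were 6 untreated wild-type animals and, killed 1 hour after a nicotine-induced seizure, 5 alpha7, 4 beta4 null and 3 wild-type animals, each genotype with its own nicotine dose. They entered the fit so that all groups shared an estimate of spread.

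Nicotinic acetylcholine receptors are ion channels built of several subunits and opened by acetylcholine and nicotine. The alpha7 subunit forms channels of its own in many brain regions. The L250T change makes those channels easier to open, so that nicotine causes seizures at lower doses. The beta4 subunit joins alpha3 subunits in the medial habenula and in autonomic ganglia, and mice without it resist nicotine-induced seizures. The comparison therefore asks how the brains of a seizure-prone and a seizure-resistant receptor genotype differ before any drug is given. Whole brain pools all regions, and in such tissue fewer cells of a type and less RNA per cell cannot be told apart.

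Both groups held 2 female and 3 male mice by their labels. Of the alpha7 mice, 4 were 6 weeks old and 1, mouse 5, was 8 weeks old. By contrast, 1 beta4 null mouse was 6 weeks old and the other 4 were 7 to 9 weeks old. All 5 alpha7 titles begin with LT and all 5 beta4 null titles with B4, a prefix that the labels do not explain. Prefix and genotype cannot be told apart in these 10 mice. Only the wild-type mice (3 LT and 3 B4 untreated, 1 LT and 2 B4 seized) allow a fit with both. The untreated LT wild-type mice were all 6 weeks old and the untreated B4 ones 7 to 9 weeks old. Arrays also fell into classes by the log2 ratio of the 3 prime to the 5 prime Gapdh control signal, a measure of how complete the labelled RNA was. Low-ratio arrays lay between -0.48 and 0.096 and high-ratio arrays between 1.13 and 2.57. Each group had 2 low-ratio arrays (alpha7 mice 3 and 4, beta4 null mice 1 and 2), and the class was a covariate in the fit. By a test that ignored array class, the groups did not differ detectably in that ratio (alpha7 minus beta4 0.50, exact permutation p = 0.50). Nor did the beta-actin ratio differ detectably (0.22, exact permutation p = 0.56). The same held for the array median (0.11 on the log2 scale, exact permutation p = 0.23). All 3 p-values are two-sided, each is 0.56 after Benjamini-Hochberg adjustment, and the smallest p that 5 against 5 allows is 0.00794. Within the high-ratio arrays, however, the Gapdh ratios were 2.23, 2.09 and 2.22 in the alpha7 mice and 1.46, 1.13 and 1.84 in the beta4 null mice. The array medians there were 51.4, 55.7 and 51.5 against 46.8, 46.4 and 46.3, so neither measure overlapped. In the low-ratio arrays both did.

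Sex transcripts were read as a check of the labels. In 2 of 28 mice the higher of Xist, the RNA that silences the second X chromosome in females, and the Y-linked Eif2s3y went against the labelled sex. Untreated wild-type mouse 5, labelled female, had an Xist signal of 1.44 and an Eif2s3y signal of 89.1, and without it 924 probe sets passed in place of 938. Beta4 null mouse 3, labelled male, was low in both, with an Xist signal of 9.95 and an Eif2s3y signal of 7.46, and without it 619 passed. The alpha7 mice lay closer together in Xist than the other untreated mice, with an SD on the log2 scale of 0.36 against 1.68 in beta4 null and 2.32 in wild-type mice. Their females had Xist signals of 29.3 and 20.9 and their males 16.7, 15.9 and 22.9, against 78.7 and 75.6 in the beta4 null females. Their Eif2s3y signals were 10.8 and 10.2 in the females and 63.2, 27.3 and 74.4 in the males. Of 4 sex transcripts tested 1 was called, Kdm6a, which was lower in the alpha7 mice by -0.79 (limma, adjusted p = 0.027). Its signals were 55.9, 40.6, 62.5, 51.0 and 107 in the alpha7 mice. In the beta4 null mice they were 102, 112, 96.6, 91.5 and 117, so the groups overlapped. The part of the narrow Xist range in the results below was not tested.

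Of 8 nicotinic subunits on the array 3 passed the filter on low signals and were tested, and none of these was called. No probe set was paired with Chrnb4, so the null allele could not be read from its transcript, and Chrna3 and Chrna5, which neighbour it, were likewise not analysed here. Chrna7 had signals of 18.3, 111, 134, 91.0 and 62.5 in the alpha7 mice and 86.5, 82.2, 59.3, 42.6 and 36.2 in the beta4 null mice. The groups overlapped and differed by 0.25 ± 0.33 on the log2 scale (SE; adjusted p = 0.66 in limma). The sign turned without alpha7 mouse 2 (-0.01). A point change such as L250T need not alter the amount of transcript, so this value checks no label. Chrne and Chrng, the muscle receptor's epsilon and gamma subunits, had log2 differences of -0.92 (adjusted p = 0.062) and 0.94 (adjusted p = 0.17).

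Spg21, which encodes maspardin, a protein of the endosomal pathway that is lost in a recessive spastic paraplegia, was the clearest difference. Its signals were 285, 373, 252, 179 and 444 in the 5 alpha7 mice and 47.7, 49.4, 83.5, 82.0 and 102 in the 5 beta4 null mice. Every alpha7 mouse lay above every beta4 null mouse. The log2 difference was 2.07 ± 0.21 (SE), or 4.20-fold (limma, adjusted p = 8.16e-07). Untreated wild-type mice had signals from 212 to 534, so it was the beta4 null group that stood apart. Against the same 6 wild-type arrays the alpha7 mice differed by -0.09 (adjusted p = 0.82) and the beta4 null mice by -2.16 (adjusted p = 3.41e-07), and these comparisons share their controls. Its probe set carries the suffix _f_at, of the kind that can bind several transcripts of a family. In the seized mice, which are other animals, the alpha7 signals were 269, 127, 174, 476 and 514 and the beta4 null signals 48.7, 54.7, 81.4 and 84.5, a log2 difference of 2.14 ± 0.22 (adjusted p = 1.45e-06). Spg21 passed in 21 of 21 alternative fits, with differences from 1.81 to 2.28, and with title prefix as a covariate it was 1.87 ± 0.30 (adjusted p = 0.011).

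Pts and Dlat, which lie on chromosome 9 as Spg21 and Chrnb4 do, were singled out after their values were seen. Pts encodes 6-pyruvoyl-tetrahydropterin synthase, an enzyme that makes tetrahydrobiopterin, the cofactor of dopamine and serotonin synthesis. Its signals were 91.4, 166, 163, 130 and 198 in the alpha7 mice and 62.1, 42.4, 84.7, 34.1 and 94.6 in the beta4 null mice. The groups overlapped by 1 mouse, and the log2 difference was 1.29 ± 0.27 (adjusted p = 0.00458). In seized mice it was 1.22 ± 0.28 (adjusted p = 0.091), with title prefix as a covariate 1.11 ± 0.40 (adjusted p = 0.29). Dlat encodes the acetyltransferase subunit of pyruvate dehydrogenase, which feeds carbon from glucose into the citric acid cycle. Its signals were 213, 153, 154, 161 and 164 in the alpha7 mice and 124, 131, 132, 116 and 132 in the beta4 null mice, with no overlap. The log2 difference was 0.40 ± 0.13 (adjusted p = 0.045), in seized mice 0.46 ± 0.14 (adjusted p = 0.27), and the covariate for title prefix took it to 0.17 ± 0.19 (adjusted p = 0.74). The other Dlat probe set differed by 0.74 (adjusted p = 0.13) and in seized mice by 0.021, and the call was lost when any of 9 of 11 mice was left out.

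**Figure D1:**
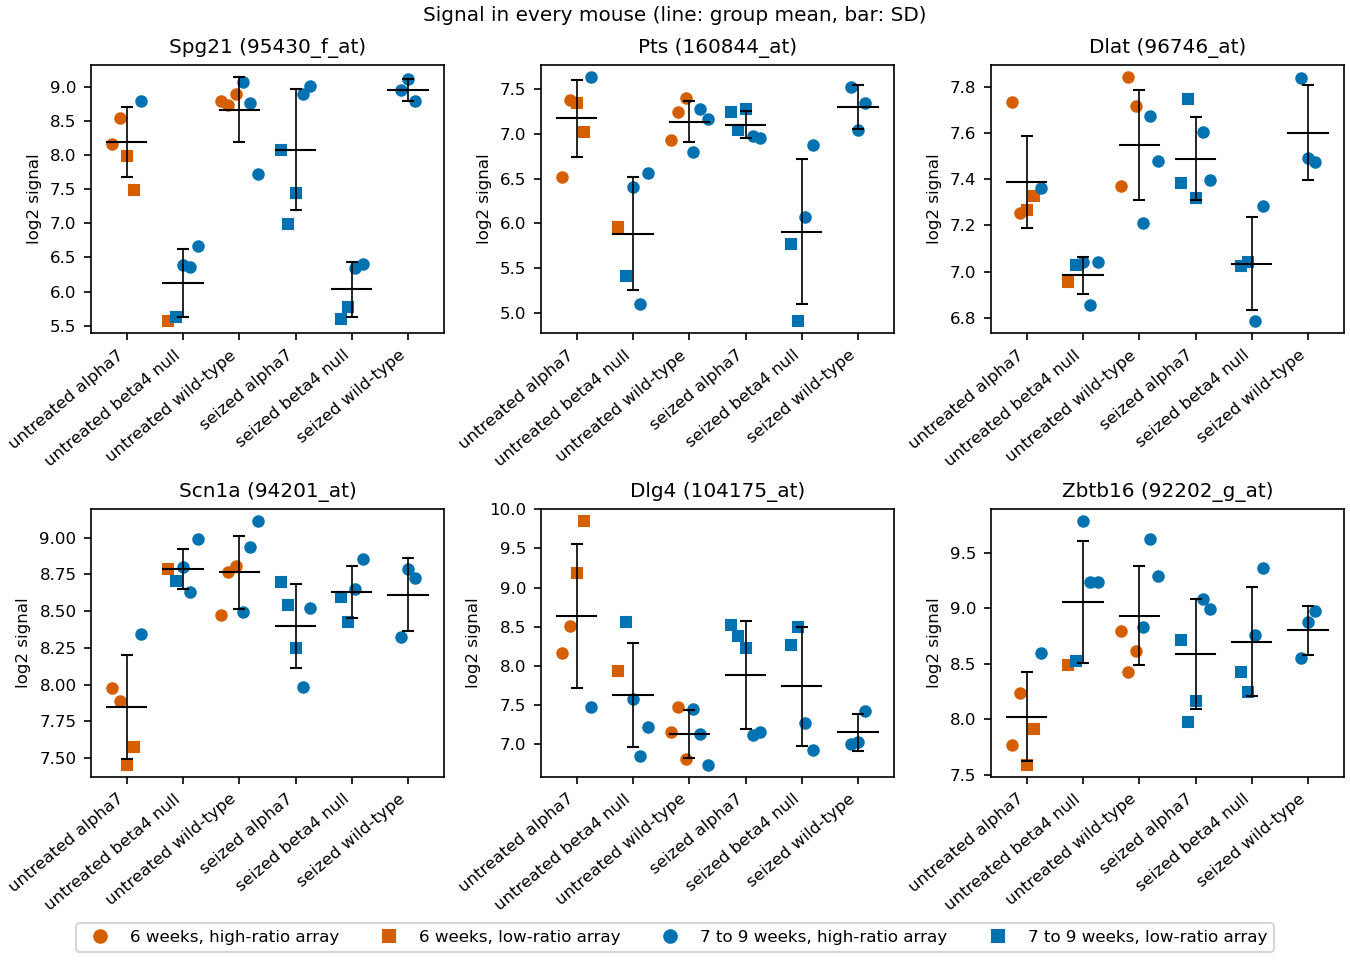
Log2 signal (vertical axes) of 6 probe sets in every mouse of the 6 groups, with the group mean as a line and the SD as a bar; colour marks mice of 6 weeks against older mice and squares mark low-ratio arrays. Spg21, Pts and Dlat are low in both beta4 null groups, whereas Scn1a, Dlg4 and Zbtb16 separate the untreated groups more than the seized ones.

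The DNA just before the start of these 3 genes is shown because their signals were low in the same mice. Each line gives the 250 bases upstream of the gene's start, 5′ to 3′ on the gene's strand, from RefSeq on build GRCm38.p6, with capitals marking the GC box GGGCGG or its complement CCGCCC. The Spg21 window lies at chr9:65460687-65460936 on the plus strand, the Pts window at chr9:50528657-50528906 on the minus strand and the Dlat window at chr9:50659781-50660030 on the minus strand.
Spg21: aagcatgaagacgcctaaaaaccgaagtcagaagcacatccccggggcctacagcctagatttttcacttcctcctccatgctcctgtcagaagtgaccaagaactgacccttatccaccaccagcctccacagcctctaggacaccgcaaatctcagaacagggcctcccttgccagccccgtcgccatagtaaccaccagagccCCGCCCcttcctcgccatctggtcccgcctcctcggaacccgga
Pts: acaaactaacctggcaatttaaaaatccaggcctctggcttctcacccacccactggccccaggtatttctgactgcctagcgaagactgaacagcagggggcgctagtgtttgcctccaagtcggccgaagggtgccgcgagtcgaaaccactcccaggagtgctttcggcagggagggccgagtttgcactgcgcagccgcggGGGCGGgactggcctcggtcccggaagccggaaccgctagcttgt
Dlat: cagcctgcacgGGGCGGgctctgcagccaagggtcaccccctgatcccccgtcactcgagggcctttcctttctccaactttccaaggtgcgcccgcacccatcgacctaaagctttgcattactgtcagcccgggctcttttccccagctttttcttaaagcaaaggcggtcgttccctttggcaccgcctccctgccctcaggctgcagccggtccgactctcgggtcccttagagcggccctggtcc
Each window holds 1 GC box on either strand, as do at least that many in 32.74% of all 32851 windows of that length. A match of letters is a description and not a binding site.

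Genes around the altered loci were then read in their order along the chromosome. Within 50 genes on either side of Chrnb4, 13 probe sets were tested and 3 passed. Ireb2, an iron-sensing RNA-binding protein, was lower in the alpha7 mice by -0.67 (adjusted p = 0.025), as was the proteasome subunit Psma4 (-0.50, adjusted p = 0.013), and Tmem266, a membrane protein with a voltage sensor, was higher by 0.45 (adjusted p = 0.045). Their differences in seized mice were 0.17, 0.00448 and -0.09, and none passed there or with title prefix as a covariate. In untreated wild-type mice, all on high-ratio arrays, Ireb2 signals ran from 90.7 to 133. They ran from 97.6 to 131 in the beta4 null mice and from 45.15 to 95.45 in the alpha7 mice. Psma4 signals ran from 401 to 526 in wild-type, 386 to 538 in beta4 null and 213 to 459 in alpha7 mice. For Tmem266 these ranges were 101 to 145, 73.9 to 119 and 95.0 to 183. A wider window of 300 genes on either side, chosen after the data were seen, held 122 tested probe sets. Of these 21 (17.21%) passed, against 12.8% of all probe sets, with 11 higher and 10 lower in the alpha7 mice. The median difference in that window was -0.00855. With title prefix as a covariate 1 passed there, and 1 did in seized mice. Spg21 lay 270 genes to one side of Chrnb4, and Pts and Dlat lay 101 and 93 genes to the other side. Of the 15 probe sets tested within 50 genes of Chrna7 none passed, and within 300 genes 3 of 44 did.

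**Figure D2:**
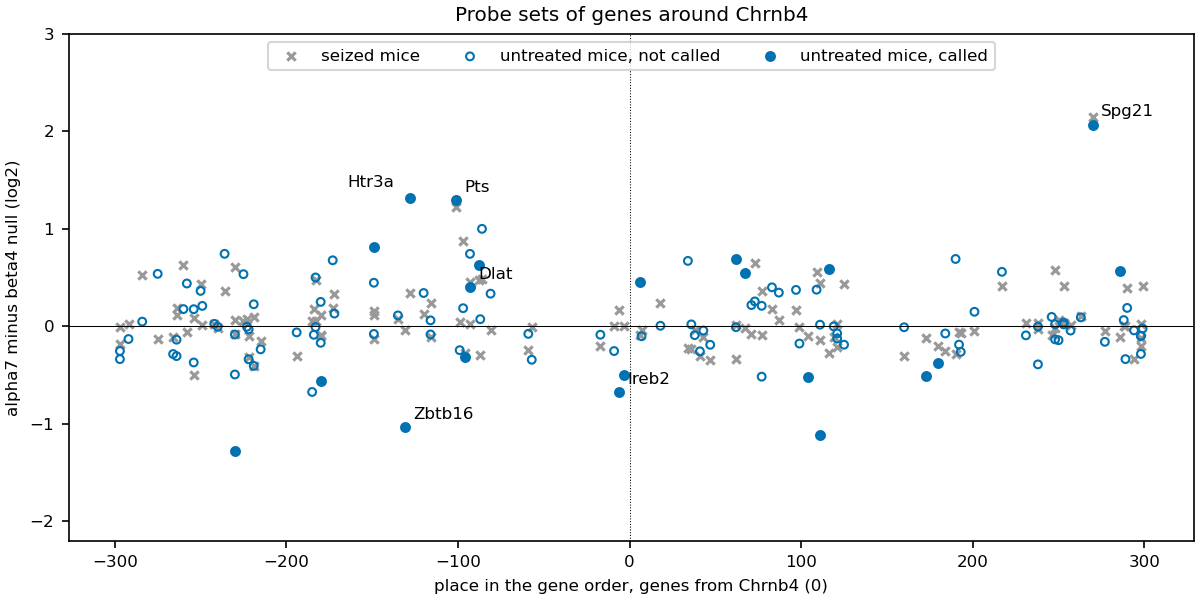
Log2 difference, alpha7 minus beta4 null (vertical axis), of probe sets by their place in the gene order around Chrnb4, counted in genes (horizontal axis); circles are untreated mice, filled where the probe set passed, and crosses are seized mice. Spg21 and Pts have nearly the same value in untreated and in seized mice, at 270 and -101 genes, while Ireb2, Zbtb16 and Htr3a do not.

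Across the array, 938 of 7350 tested probe sets passed (limma, adjusted p under 0.05), which is 12.8%. Of these 374 (5.09%) were higher and 564 (7.67%) lower in the alpha7 mice, and they stand for 329 and 478 genes, with 3 genes called both ways. The median size was 0.59 on the log2 scale, and 101 differed by at least 1. Values of the 5 and 5 mice did not overlap for 231 probe sets (3.14%), of which 180 were called. Centring each array on its own median moved the median of all probe sets from 0.010 to -0.099 and the split to 177 higher and 946 lower, so that 15.76% of calls were higher in place of 39.87%, while all 938 kept their sign. The number of calls rested on the array class: without it in the fit 182 passed (2.48%), all among the 938. In the high-ratio arrays alone, 3 mice a group, Spg21 was the 1 call. With title prefix as a covariate 2 passed (0.0272%), Spg21 and Atp1b1, a subunit of the sodium pump that was not called without the prefix (-0.34, adjusted p = 0.10) and was -0.87 with it (adjusted p = 0.035). In that fit the sign was kept by 927 of the 938, at a median 0.79 of the first difference, and the median SE grew from 0.18 to 0.26. With age in weeks as a covariate 100 passed, and all 938 kept their sign, at a median 0.85 of the first difference. In mice of 7 weeks or older, where 1 alpha7 mouse remained, the sign was kept by 775 of the 938. The median there was 0.30 of the first difference. Single mice moved the count as well: 531, 535 and 569 passed without alpha7 mice 2, 3 and 4, 1592 without alpha7 mouse 5, and 510, 412 and 619 without beta4 null mice 1, 2 and 3.

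Genes higher in the alpha7 mice with the smallest p included synaptic and signalling genes. Dlg4, which encodes the postsynaptic scaffold PSD-95, had signals of 286, 365, 582, 921 and 178 in the alpha7 mice and 244, 377, 190, 115 and 149 in the beta4 null mice. The low-ratio arrays were the highest within each group, the groups overlapped, and the difference with class in the fit was 1.01 ± 0.19 (adjusted p = 0.00258). Without class in the fit its adjusted p was 0.13. Gnai2, an inhibitory G protein subunit, had signals of 1547, 2093, 1426, 1289 and 1414 in the alpha7 mice and 738, 822, 1100, 1107 and 1236 in the beta4 null mice, with no overlap (0.64 ± 0.13, adjusted p = 0.00353). Its other probe sets differed by 0.42 (adjusted p = 0.067) and 0.09 (adjusted p = 0.57). Kcnj9, a subunit of G protein-gated potassium channels, was higher by 2.37 ± 0.47 on a probe set whose beta4 null signals did not exceed 51.8. There the groups overlapped by alpha7 mouse 5 (33.2). The other Kcnj9 probe set was higher by 0.68 (adjusted p = 0.13). Gamt, the last enzyme of creatine synthesis, was higher by 1.16 ± 0.22 (adjusted p = 0.00353), though its other probe set differed by 0.27 (adjusted p = 0.15). The Gamt groups overlapped by alpha7 mouse 5 (174), and with title prefix as a covariate the difference was 0.46.

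Others of the 15 higher genes with the smallest p were Akr7a5 (0.94), an aldehyde reductase, Klc1 (0.70), a light chain of the kinesin motor, Ndel1 (0.57), a dynein regulator, Nop53 (0.94), a ribosome assembly factor, and Acaa1b (0.77), a thiolase of peroxisomal fat oxidation. Mcrip1 (0.57), Btbd17 (1.39) and Mrps18a (0.78), a mitochondrial ribosomal protein, completed them with Pdc and Rps28. For Akr7a5, Nop53 and Mcrip1 the groups overlapped by alpha7 mouse 5. Its signals there were 240, 214 and 784.5, against beta4 null signals up to 249, 230.5 and 784.9. The other Mrps18a probe sets differed by -0.015 (adjusted p = 0.96), 0.30 (adjusted p = 0.31) and -0.098 (adjusted p = 0.70), and the other Ndel1 probe set by 0.03 (adjusted p = 0.92). Pdc, phosducin of the retina and pineal gland, had signals of 42.9 to 91.5 in the alpha7 mice and 2.43 to 25.6 in the beta4 null mice. It exceeded the array median in 4 arrays, all of untreated alpha7 mice, and so was tested only through the group where it was high. Its difference of 3.36 has no firm size, since 4 of the 5 beta4 null signals lay below the 25th percentile of all signals (11.58), and with signals raised to that floor it was 2.30. Rps28 was higher by 2.10 on a probe set that exceeded the array median in 5 arrays, 4 of them of untreated alpha7 mice, while its other probe sets, which are brighter, differed by 0.00341 and 0.00427. In all, 15 of the 938 calls were of probe sets that reached the filter only through the alpha7 group, and 1 only through the beta4 null group.

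Genes lower in the alpha7 mice included the sodium channel Scn1a, whose loss causes epilepsy in mice and people. Its signals were 253, 237, 176, 190 and 325 in the alpha7 mice and 443, 418, 447, 396 and 510 in the beta4 null mice. The groups did not overlap, and the log2 difference was -0.94 ± 0.15 (adjusted p = 0.00118), with -0.85 ± 0.17 (adjusted p = 0.0042) on the other probe set. The highest alpha7 value was that of the 8-week-old mouse. Against the same wild-type mice, which the 2 comparisons share, the alpha7 mice differed by -0.86 (adjusted p = 0.00322) and the beta4 null mice by 0.08 (adjusted p = 0.93). In seized mice the difference between the genotypes was -0.22 ± 0.16 (adjusted p = 0.72), and with title prefix as a covariate it was -0.69 ± 0.22 (adjusted p = 0.24).

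Xpot, which exports tRNA from the nucleus, had the smallest p among the lower genes. Its signals were 222, 185, 154, 158 and 244 in the alpha7 mice and 250, 251, 368, 362 and 333 in the beta4 null mice, with no overlap (-0.70 ± 0.10, adjusted p = 0.000786). Other genes of RNA handling and translation among the 15 were Eif1a (-0.97), a factor that helps ribosomes find the start codon, and Hnrnpa2b1 (-0.94, and -0.37 on its brighter probe set), an RNA-binding protein. Those of the nucleus and DNA were Dnttip2 (-1.01), Zfp644 (-0.56), the histone demethylase Kdm3a (-0.88), Pcna (-0.73), the clamp of DNA replication, and Rev3l (-0.79), a polymerase that copies damaged DNA. Pag1 (-1.04), a membrane adaptor that restrains Src kinases, Pcm1 (-1.37), a centrosome protein, B3galt2 (-1.11), a galactosyltransferase, Strn3 (-0.67), Ccdc50 (-0.83) and AW549877 (-0.85) made up the rest. All 15 except Strn3 lay below the beta4 null mean in each of the 5 alpha7 mice, and Strn3 did so in 4.

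Gene lists were read by how many members passed, beside 5.14% higher and 7.88% lower among all 5599 genes at 1 probe set each, whose median difference was 0.00129. No list was given a test, and the lists were drawn up with earlier results of these data known. Of 36 measured proteasome and ubiquitin genes, 9 were lower and none higher, with a median of -0.31. They included Psma2 (-0.67), a subunit of the proteasome core, and the ubiquitin-conjugating enzyme Ube2n (-0.66). The list's median was -0.18 with title prefix as a covariate and -0.13 in seized mice. Of 35 splicing and hnRNP genes, 9 were lower, 2 were higher and the median was -0.27. The RNA-binding proteins Hnrnph1 (-0.43), Hnrnph2 (-1.06) and Hnrnpk (-0.45) were among the lower ones and Srsf4 (0.75), a splicing factor, among the higher ones, although the other Srsf4 probe set differed by 0.03 (adjusted p = 0.93). The median of this list was -0.17 with title prefix as a covariate and 0.042 in seized mice.

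The GABA and chloride genes that passed were lower in the alpha7 mice. Of 14 measured genes of GABA receptors, synthesis and chloride transport, 4 were lower and none higher, while the median was -0.0965 and took the value of -0.00438 in high-ratio arrays alone. Gad1, which makes GABA, had signals of 1694, 1577, 1598, 1505 and 1886 in the alpha7 mice and 2158, 2013, 2082, 2058 and 2106 in the beta4 null mice. The groups did not overlap, although the difference was small (-0.34 ± 0.08, adjusted p = 0.00702). Gabra2, a GABA-A receptor subunit, had signals of 26.1, 40.8, 7.11, 17.8 and 6.67 in the alpha7 mice and 93.4, 135, 42.8, 55.5 and 30.5 in the beta4 null mice, so that its groups overlapped and most values lay below the array medians. Its difference was -2.0 ± 0.58 (adjusted p = 0.025), -1.77 ± 0.61 in seized mice (adjusted p = 0.35) and -0.88 ± 0.81 with title prefix as a covariate (adjusted p = 0.68). Gabra6, the receptor subunit of cerebellar granule cells, was lower by -0.61 on 1 probe set and -0.69 on the other, and Slc12a2, which brings chloride into cells, by -0.56.

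Of 14 glutamate receptor and transport genes 2 were higher and none lower, with a median of 0.20 (0.022 with title prefix as a covariate). Beside Dlg4, the other was Grin2c, an NMDA receptor subunit abundant in the cerebellum. Its signals were 397, 397, 289, 287 and 283 in the alpha7 mice and 213, 230, 173, 215 and 214 in the beta4 null mice, with no overlap (0.65 ± 0.18, adjusted p = 0.020), and title prefix as a covariate took the difference to 0.021. Of 28 genes listed as voltage-gated channels, not all of which are gated by voltage, 2 were higher and 2 lower. The calcium channel Cacna1c (0.45) and the potassium channel Kcnj4 (0.71) were higher. Scn1a and the chloride transporter Clcn3 (-0.28) were lower, and the other 3 probe sets of Clcn3 did not pass (-0.27, -0.069 and 0.24). Among 9 monoamine genes, the serotonin-gated channel Htr3a (1.32, adjusted p = 0.020) and the adrenergic receptor Adra1b (1.48, adjusted p = 0.034) were higher. Adra1b had beta4 null signals of 8.85 to 25.5, 2 of them below the 25th percentile of all signals, and differed by 0.12 with title prefix as a covariate and by -0.66 in seized mice. For Htr3a these values were 2.06 and 0.34. Of 3 measured cholinergic genes Ache, the enzyme that breaks down acetylcholine, was higher by 0.62 (adjusted p = 0.045).

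The clock and glucocorticoid-responsive genes that passed were lower in the alpha7 mice. Of 17 clock genes 4 were lower and none higher, though the list's median was -0.028. Nr1d2, a repressor of the clock, was lower by -0.75 ± 0.16 (adjusted p = 0.00509), Bhlhe40 by -0.80, Per2 by -0.86 and Per1 by -0.78. The Per2 signals ran from 26.3 to 50.9 in the alpha7 mice and from 64.9 to 100 in the beta4 null mice and did not overlap. Of 18 glucocorticoid-responsive genes, which also include Per1, 5 were lower, none was higher and the median was -0.42. Zbtb16, a transcription factor that these hormones induce, had signals of 219, 301, 193, 242 and 388 in the alpha7 mice and 360, 368, 881, 604 and 604 in the beta4 null mice. The groups overlapped by the 8-week-old alpha7 mouse (-1.03 ± 0.19, adjusted p = 0.00279). Glul, glutamine synthetase of astrocytes, was lower by -1.19 on 1 probe set and differed by 0.41 (adjusted p = 0.18) on the other, and Klf9 was lower by -0.36, with -0.48 (adjusted p = 0.12) on its other probe set. The list's median was -0.20 with title prefix as a covariate and 0.015 in seized mice. Of 16 immediate early factors, Fos (-1.14) and Klf10 (-0.50) were lower and none was higher.

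Lists of cell-type markers gave calls in both directions. Of 11 myelin genes 2 were higher, Mag (1.01), an adhesion protein of the myelin sheath whose other probe set differed by 0.45 (adjusted p = 0.26), and Qdpr (0.44), and the median of 0.32 turned to -0.0103 with title prefix as a covariate. Of 16 endothelial and pericyte genes 4 were higher, among them the tight-junction gene Cldn5 (1.00) and the vessel receptor Eng (0.69), and 2 were lower, the pericyte marker Rgs5 (-0.95) and smooth-muscle actin, Acta2 (-0.57). With title prefix as a covariate Cldn5 differed by 0.28 and Eng by 0.23, and in seized mice by -0.31 and -0.10. Of 14 astrocyte genes 3 were higher and 2 lower. For the defining markers summed in each mouse, all 10 cell types overlapped between the groups. The sums were of linear signals and took no account of array class, so overlap cannot show equal composition. Blood and retina rested on 2 markers each, and those of retina did not pass the filter. The endothelial sum ran from 981 to 1688 in the alpha7 mice and from 732 to 1088 in the beta4 null mice, the oligodendrocyte sum from 6401 to 9904 and from 5974 to 6995, and the astrocyte sum from 2284 to 3369 and from 3255 to 3603. The neuronal sum ran from 8030 to 9925 and from 9042 to 10870. Their part in the differences was not tested. Of 39 oxidative phosphorylation genes 4 were lower and 1 higher, and of 23 cytosolic ribosomal protein genes 3 were lower and 2 higher, with medians of -0.10 and -0.071 that turned positive (0.11 and 0.16) with title prefix as a covariate.

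**Figure D3:**
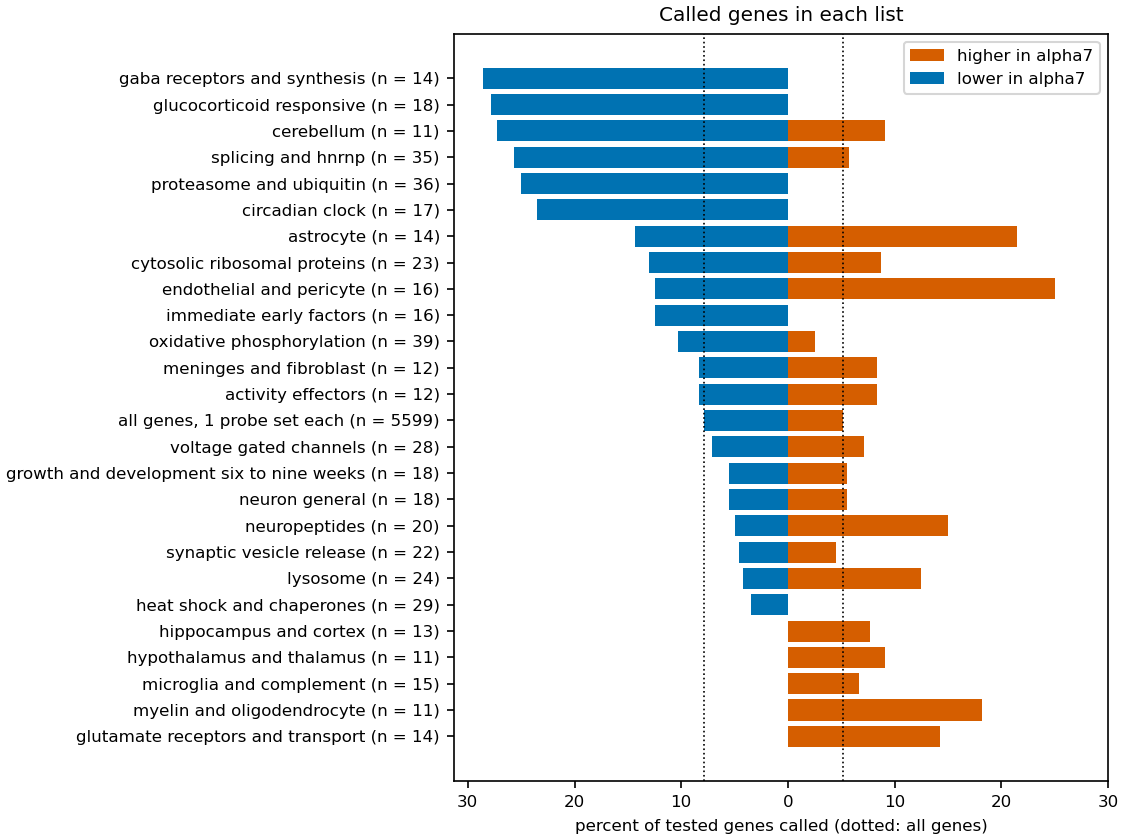
Percent of the measured genes of each list that passed, to the right when higher and to the left when lower in the alpha7 mice (horizontal axis), for lists of 10 or more genes, with n the genes measured and dotted lines at the shares over all genes. Proteasome, splicing, GABA, clock, glucocorticoid and cerebellum lists reach 23.53% to 28.57% lower against 7.88% of all genes, and endothelial genes 25% higher against 5.14%.

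The same contrast in the seized mice, all other animals and 7 or 8 weeks old, gave 9 calls (0.122%), of which 3 were also called in the untreated mice. These were Spg21, an unnamed probe set (0.79 untreated and 1.52 seized), and Klf10, which had opposite signs. Klf10, an early-response transcription factor, was lower in untreated alpha7 mice, with signals of 114, 127, 112, 111 and 123 against 193, 209, 151, 129 and 157 and no overlap (-0.50 ± 0.13, adjusted p = 0.015), and higher in seized ones (0.77 ± 0.14, adjusted p = 0.010). Its other probe set differed by -0.21 in untreated mice (adjusted p = 0.34) and by 0.65 in seized mice. Of the 938 probe sets, 514 had the same sign in seized mice, 54.8% against 53.8% of all probe sets. The median difference in seized mice was 0.029 for those higher and -0.022 for those lower in the untreated mice, where the medians were 0.61 and -0.59. The difference between the 2 contrasts passed for 69 probe sets (0.939%), and 59 of them were among the 938. Seizure, nicotine dose and age differ together between these contrasts and cannot be told apart.

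**Figure D4:**
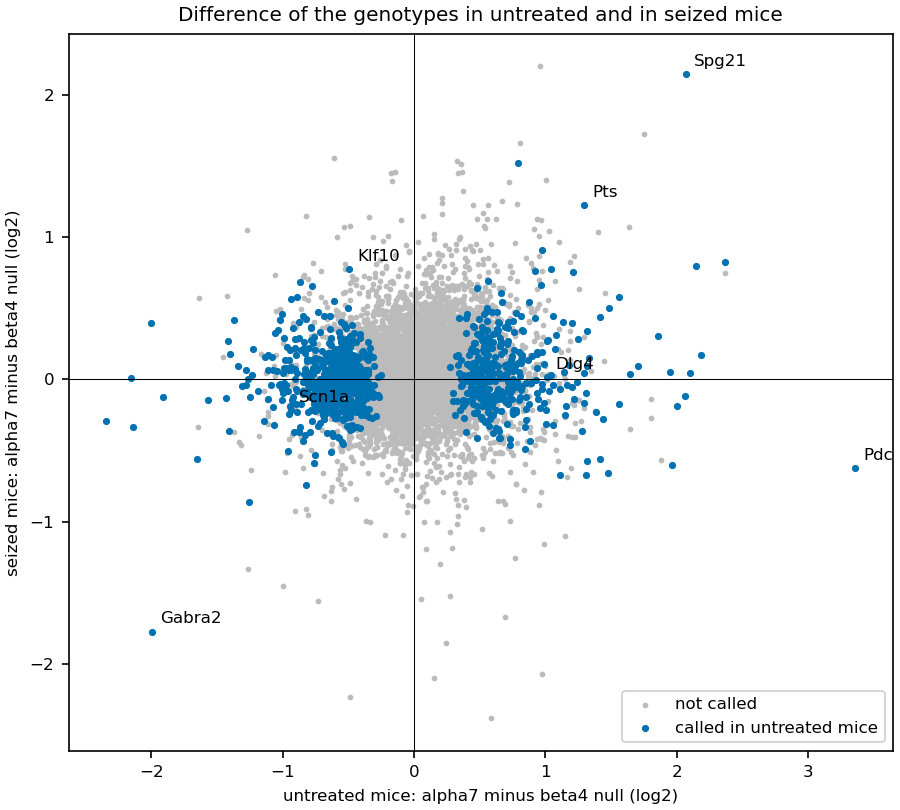
Log2 difference, alpha7 minus beta4 null, in seized mice (vertical axis) against that in untreated mice (horizontal axis) for each of 7350 probe sets, with the 938 called in untreated mice in blue. Most blue points lie near 0 on the vertical axis, and Spg21, Pts and Gabra2 have similar values on both.

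Set against the untreated wild-type mice, which both comparisons share, the alpha7 group gave 669 calls (9.1%) and the beta4 null group 1 call (0.0136%), Spg21. All 6 wild-type arrays were of the high-ratio class. Of the 938 probe sets, the wild-type mean lay nearer to the beta4 null mice for 817 (87.1%), against 66.57% of all probe sets. Among the wild-type mice alone, the 3 with the LT prefix minus the 3 with the B4 prefix had the same sign as alpha7 minus beta4 for 708 of the 938 (75.48%), against 60.16% of all probe sets. The median wild-type difference was 0.21 for those higher and -0.13 for those lower in the alpha7 mice. The 3 LT wild-type mice were all 6 weeks old and the 3 B4 ones 7 to 9 weeks old, so prefix and age cannot be told apart among them.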

How the data were processed

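The deposited values are linear signal intensities, for which the submitters' processing notes name MAS5 without a version, and no detection calls were used. On each array the mean after trimming 2% at each end was 149.96. Of 12488 probe sets, 66 controls were left out, and 7350 were kept whose signal exceeded its array's median in at least 3 of 28 arrays, which stand for 5599 genes; 10833 had 1 gene in the platform annotation, and 10817 symbols matched RefSeq genes (GRCm38.p6).

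Log2 signals were fitted with limma 3.58.1 (R 4.3.3; lmFit, eBayes with trend), with 6 group means and array class (Gapdh ratio under 0.5), with two-sided p-values and Benjamini-Hochberg adjustment over the kept probe sets at 0.05. The fit was tested on simulated data. Replicates are separate mice by their labels. Within groups, rank correlations ran from 0.907 to 0.972. The number of arrays limits the precision.

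Genes were named by rule: the 15 smallest p in each direction, the nicotinic subunits, called neighbours of the altered genes, and up to 4 members of each list described. Atp1b1, Pts, Dlat and the unnamed probe set of the seized contrast were named after their values were seen. Lists used the brightest probe set of a gene. The members, lists and alternatives were chosen with earlier results of these data known. Alternatives changed the covariates, arrays, scaling, filter, floor and variance model, and left out each of the 10 mice in turn.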

Additional observations from a re-analysis of the deposited data

Results flagged for a closer look

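Some genes had a single mouse far from the others of its group, in 8 of 164 groups of 4 to 6 mice examined, and chance alone gives such a mouse in about 1 in 20 groups, so the count is near what chance gives. On the log2 scale the lowest alpha7 mouse stood apart for Akr7a5 (7.91), Gamt (7.45), Ache (7.55), Scg2 (8.77) and Srsf4 (7.37), and the highest alpha7 mouse for Dlat (7.74). Among the beta4 null mice the highest stood apart for Per2 (6.65) and the lowest for Grin2c (7.44).

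For other genes the difference between alpha7 and beta4 null mice was not the same in untreated as in seized mice, by a test of the untreated minus the seized difference (limma, adjusted p under 0.05). It was positive for Pdc (3.99), Cck (1.02), Acaa1b (0.99), Hexa (0.86) and Lamp1 (0.84). It was negative for Pcm1 (-1.78), Per2 (-1.55), Lamp2 (-1.43), Klf10 (-1.27), B3galt2 (-1.18), Pag1 (-1.10), Eif1a (-1.05), Hnrnpa2b1 (-1.0), Nr1d2 (-0.96), Ccdc50 (-0.91), Zfp644 (-0.68), Xpot (-0.64) and Gad1 (-0.55).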

How the results depend on the processing

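The count of 938 calls became 182 without array class and 1473 with the Gapdh ratio as a continuous covariate. It was 1 in high-ratio and 597 in low-ratio arrays alone. It was 100 with age, 12 with a term for mice of 6 weeks against older mice, and 2 with title prefix (also with age added). In the 10 arrays alone it was 226 and in the 16 untreated arrays 481. An alternative chosen after the data were seen, mice of 6 weeks only (4 and 1), gave 110. Leaving out 1 mouse gave 412 to 1592. The other alternatives gave counts within 1.5 times the main one.

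The 91 calls among list members became 23 without class, 0 in high-ratio arrays, 14 with age, 0 in mice of 7 weeks or older, 1 with the 6-week term, 0 with title prefix (also with age), 26 in the 10 arrays, 56 in the 16, 13 in mice of 6 weeks, and 45 to 146 without 1 mouse. The 3 calls near Chrnb4 and Chrna7 became 5 with the continuous ratio, 0 without class, in high-ratio arrays, with age, the 6-week term or title prefix, in mice of 7 weeks or older, in the 10 arrays and in mice of 6 weeks, and 0 to 6 without 1 mouse. The 3 calls shared with seized mice became 1 in either array class, 1 with title prefix, 0 with title prefix and age, and 6 with array weights.

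In mice of 7 weeks or older, where 1 alpha7 mouse is left, the sign turned for Tmem266 (-0.0074), Ache (-0.27), Slc12a2 (0.17), Fos (0.38), Mag (-0.16), Cck (-0.045), Hnrnph2 (0.23) and Srsf4 (-0.20), and that of Chrna7 did when 1 mouse was left out (-0.013 to 0.67). The cause of these changes was not tested. Of 76 called probe sets named in the text, Cbln1 and Kdm6a not counted, 50 stayed called without any of 11 mice. The other 26 lost the call at least once. It was lost 10 times for Clcn3, 9 for Dlat and Tmem266, 8 for Ache and Qdpr, and 7 for Per1 and Fos. The count was 5 for Acta2, Adra1b and Kcnj4, and 4 for Ireb2, Gabra2, Slc12a2, Klf9, Mag, Scg2 and Cacna1c. For the others it was 1 to 3. The mice whose removal ended most of these calls were beta4 null mouse 2 (20) and alpha7 mouse 3 (18). Spg21 was called in every fit. No paired analysis was possible because the labels carry mouse numbers and no replicate numbers shared between the groups. Without detection calls, weak signals have no background to be set against.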

Other observations

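Lysosome, neuropeptide and cerebellar genes were measured as further lists, again without a test of any list. Among all 5599 genes 5.14% were higher and 7.88% lower. Of 24 lysosomal genes 3 were higher in the alpha7 mice, the membrane protein Lamp1 (0.59 ± 0.13, limma adjusted p = 0.00565), the hexosaminidase subunit Hexa (0.58) and the cholesterol carrier Npc2 (0.46). The membrane protein Lamp2 was lower (-0.78 ± 0.20, adjusted p = 0.012), and its other probe set differed by -0.24 (adjusted p = 0.50). The median of the lysosomal list was 0.00059, with 12 genes above 0 and 12 below. Of 20 neuropeptide genes 3 were higher and 1 lower, with a median of -0.035. Cck, cholecystokinin of cortical neurons, was higher by 0.71 ± 0.17 (adjusted p = 0.0092) and differed by -0.31 in seized mice, while Scg2, a granin of secretory vesicles, was lower by -0.37 ± 0.11 (adjusted p = 0.026). Of 11 cerebellar genes 3 were lower and 1 higher, and the median was 0.058, with 6 genes above 0 and 5 below. Car8, a protein of Purkinje cells, was lower by -0.91 ± 0.23 (adjusted p = 0.012). Zic1, a transcription factor of granule cells, was lower by -0.52 ± 0.15 (adjusted p = 0.023). The gene called higher was Cbln1 (0.50, adjusted p = 0.031).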
